A study of Mus musculus with 9 samples.

Results

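The germ cell transcription and RNA regulators examined here were 10 genes chosen by name for their known roles, and all 10 were found among the 25965 genes of the deposited expression table. They were Prdm1, Prdm14, Tfap2c, Sohlh1, Sohlh2, Figla, Nobox, Stra8, Dazl, and Taf7l. RNA-seq had been performed on E14 mouse embryonic stem cells (ESCs), a line of 129/Ola background kept in serum and LIF without feeder cells. Cells received control siRNA, Dppa2 siRNA, or Dppa4 siRNA at 0 h and again at 48 h and were harvested at 96 h, giving 3 libraries of polyadenylated RNA per treatment (replicates A, B, and C). Dppa2 and Dppa4 are small DNA-binding proteins of early embryos, germ cells, and pluripotent cells, and the comparison asks which transcripts depend on them. Each siRNA was a pool against its gene, so a treatment stands for partial loss of the transcript. The labels name only E14, while the study describes its knockdowns in ESCs that carry fluorescent MERVL and Zscan4c reporters, so the line may hold these transgenes in every treatment.

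Primordial germ cells are set aside in the early embryo when Prdm1, Prdm14, and Tfap2c repress the somatic programme and restore pluripotency genes. Later, Dazl, an RNA-binding protein that controls translation, licenses germ cells to enter gametogenesis, Stra8 starts meiosis in response to retinoic acid, and the basic helix-loop-helix factors Sohlh1 and Sohlh2 drive the differentiation of spermatogonia and of early oocytes. Figla and Nobox are oocyte transcription factors, and Taf7l is an X-linked relative of the TFIID subunit Taf7 used in male germ cells. Many of the later genes have promoters that are methylated and silent in somatic cells, while serum ESCs transcribe some of them at a low level.

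Sohlh2, Dazl, and Taf7l fell with both siRNAs to between 11.3% and 21.8% of their control level, and Sohlh1, which is low in control siRNA cells, had 0 inferred reads in all 6 knockdown libraries. Stra8 was not among the genes that changed. Prdm1, Prdm14, and Tfap2c stayed well expressed, with differences from control of at most 0.46 on the log2 scale, none of which passed the test. Figla and Nobox had at most 12 reads in any library and were not tested. The plot of the 10 genes by library shows these 4 patterns.

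**Figure D1:**
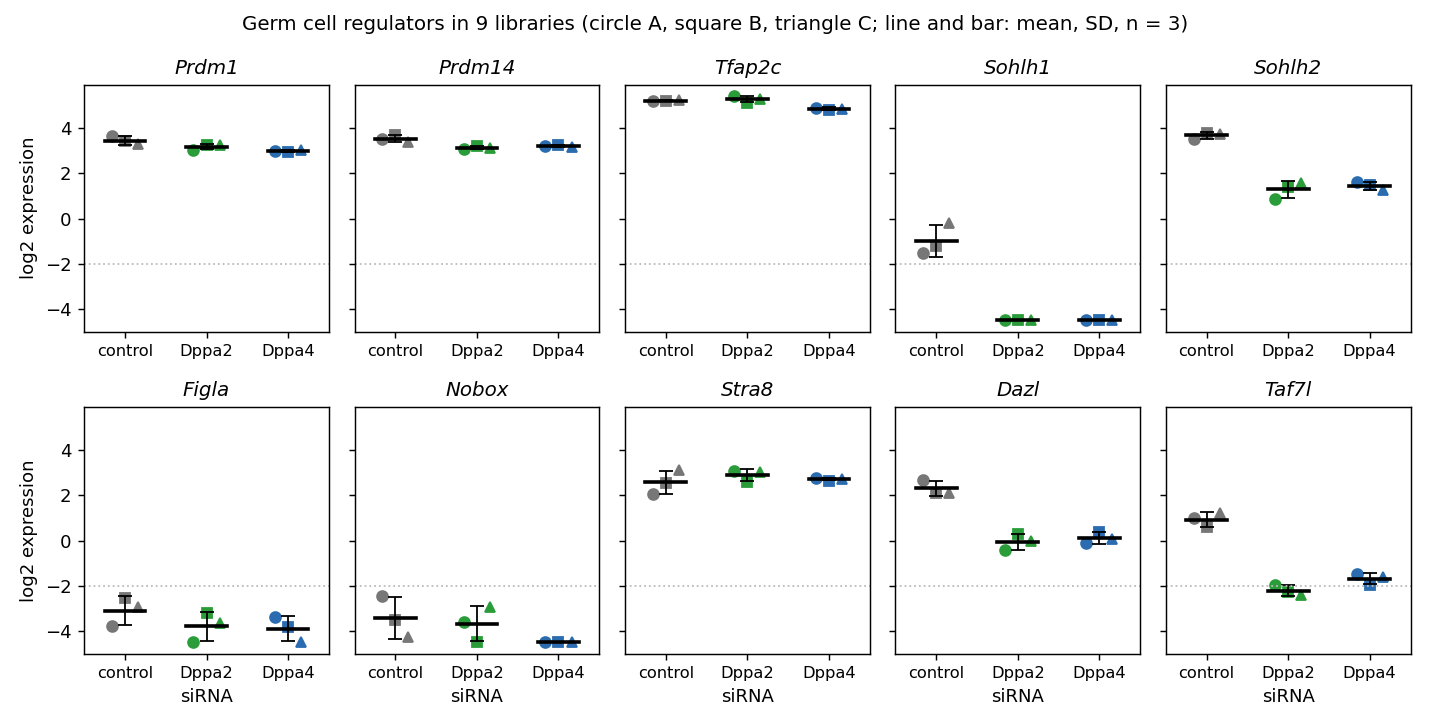
Deposited log2 expression of each of the 10 genes in every library, by siRNA (circle, replicate A; square, B; triangle, C; line and bar, mean and SD of 3 libraries; dotted line, the minimum of -2 used for testing). Sohlh2, Dazl, Taf7l, and Sohlh1 sit lower in all 6 knockdown libraries than in the control libraries, and Stra8 overlaps. The means of Prdm1, Prdm14, and Tfap2c move by at most 0.46.

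The 4 genes that fell lie on 4 chromosomes, and their upstream sequences are shown because they moved together. Sequences are those of RefSeq on GRCm38.p6, the 250 bases before each annotated start, read 5′ to 3′ on the gene's own strand. Capitals mark CACGTG, an E-box of the kind bound by basic helix-loop-helix factors, which reads the same on both strands.
Sohlh1 (chr2:25847249-25847498, minus strand): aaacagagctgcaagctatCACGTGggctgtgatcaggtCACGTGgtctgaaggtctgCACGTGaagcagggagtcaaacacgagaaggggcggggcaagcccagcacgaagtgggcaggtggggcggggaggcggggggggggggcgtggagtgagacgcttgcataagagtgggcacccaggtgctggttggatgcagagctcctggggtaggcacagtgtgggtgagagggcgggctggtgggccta
Sohlh2 (chr3:55181794-55182043, plus strand): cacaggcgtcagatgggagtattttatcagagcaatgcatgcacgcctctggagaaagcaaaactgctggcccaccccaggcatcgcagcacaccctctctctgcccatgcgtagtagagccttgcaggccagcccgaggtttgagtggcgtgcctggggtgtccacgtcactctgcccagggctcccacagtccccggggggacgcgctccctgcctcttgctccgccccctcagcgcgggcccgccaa
Dazl (chr17:50293621-50293870, minus strand): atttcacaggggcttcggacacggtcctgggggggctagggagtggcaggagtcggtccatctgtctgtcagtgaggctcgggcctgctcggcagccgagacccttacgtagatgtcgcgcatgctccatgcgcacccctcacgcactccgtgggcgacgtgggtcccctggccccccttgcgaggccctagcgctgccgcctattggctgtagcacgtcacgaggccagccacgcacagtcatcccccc
Taf7l (chrX:134476491-134476740, minus strand): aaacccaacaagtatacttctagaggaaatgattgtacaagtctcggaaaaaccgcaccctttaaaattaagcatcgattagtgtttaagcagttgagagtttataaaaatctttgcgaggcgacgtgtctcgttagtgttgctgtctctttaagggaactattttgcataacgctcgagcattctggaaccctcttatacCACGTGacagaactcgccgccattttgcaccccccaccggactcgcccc
The last 16 bases of the Sohlh2 and Dazl windows fall in the first exon of the GENCODE models, which start slightly earlier, and the Sohlh1 and Taf7l windows hold none of their own exons.

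The Sohlh1 window held the E-box 3 times, with first bases at -231, -211, and -192 from the start, and the Taf7l window held it once, at -49. Of all 32851 RefSeq promoter windows of this length, 6.02% held at least 1 copy and 0.0609% held 3 or more. Windows were at hand for 8 of the 10 genes (not for Prdm14 and Tfap2c), and only those of Sohlh1 and Taf7l had the motif. The letters GGCGGGA, an E2F site searched on both strands, were in 0 of the 8 windows and in 9.75% of all windows. A match in these letters is a description of the window and does not show binding.

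CpG content differed widely among the genes. The ratio of observed to expected CpG was 1.13 for Taf7l, higher than in 98.6% of all windows, 0.71 for Dazl and for Prdm1, 0.651 for Figla, 0.542 for Sohlh2, 0.513 for Sohlh1, and 0.418 for Nobox. All windows had a median of 0.373, with quartiles of 0.167 and 0.723. Stra8 was lowest of the 8 at 0.267, in a window that lies wholly inside an exon of a longer GENCODE model. The 4 genes that fell ran from 0.513 to 1.13 and did not share the E-box.

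Before the members were read, the targeted transcripts were examined. Dppa2 siRNA left 8.98% ± 1.54 (SD, n = 3) of Dppa2, and Dppa4 siRNA left 52.4% ± 1.21 (SD, n = 3) of Dppa4, on the deposited scale. Of their 50-base stretches 32.6% and 33.0% also occur in another annotated gene, so these percentages may not be wholly specific to either transcript. In RNA, the target of the other siRNA stayed near control, with Dppa4 at 103.7% ± 3.46 (SD, n = 3) after Dppa2 siRNA. Dppa2 was at 96.2% ± 5.87 (SD, n = 3) after Dppa4 siRNA. Protein was not measured here. The study's Western blots showed much less Dppa2 protein after Dppa4 siRNA, and somewhat less Dppa4 protein after Dppa2 siRNA. Its qRT-PCR gave a deeper fall of Dppa4 mRNA than the deposited values. Inferred reads on genes were 16.3 to 39.9 Mreads per library, with the deepest library among the controls, and 8423 to 10187 genes per library lay at the lowest value, which stands for 0 reads. Control siRNA replicates A and C had the weakest agreement of any pair within a treatment (Pearson r across genes 0.9544). The study calls its siRNA libraries biological replicates, but the labels do not say that they came from separate cultures. Every sample title carries rep3 before its letter, so the libraries may be parts of the same experiment. The p-values thus measure the spread between these libraries, which may be technical. Markers of naive pluripotency had 0 of 9 genes called by limma in either comparison (1 and 0 at an unadjusted p below 0.05). Of all tested genes limma called 2.27% and 2.34% lowered and 1.16% and 1.1% raised, so 0 of 9 is near the share of all genes. An unadjusted p below 0.05 was found for 15.7% and 18.0% of them. Their summed linear level was 2550 to 3310 with control siRNA, 2980 to 3370 after Dppa2 siRNA, and 2900 to 3170 after Dppa4 siRNA.

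Of the 10 genes, 8 exceeded -2 (log2) in 3 or more libraries and were tested with limma among 14601 genes. High-confidence genes had a Benjamini-Hochberg adjusted p below 0.05 and also passed a filter that compares a gene's difference with those of genes of like intensity. With Dppa2 siRNA, 3 members were high-confidence lowered (Dazl, Sohlh2, and Taf7l), where 1.53% of all tested genes were. With Dppa4 siRNA there were also 3 (Dazl, Sohlh1, and Sohlh2), against 1.58% of all tested genes. By limma alone the same 4 members were lowered in both comparisons, against 2.27% and 2.34% of all tested genes. The members were chosen with earlier results of these data known, and the study itself names Sohlh2 as lowered in its knockdowns. Sohlh1 entered the test only through its 3 control libraries and so had to be lower elsewhere, which leaves 3 of the other 7 tested members lowered by limma in each comparison. Of the 8, 0 were raised by either rule in either comparison, while 0.377% and 0.37% of tested genes were high-confidence raised and 1.16% and 1.1% were raised by limma alone. At an unadjusted p below 0.05 there were 5 members after Dppa2 siRNA and 7 after Dppa4 siRNA, and every one of these lay below control. Of all tested genes 15.7% and 18.0% had such a p, in either direction. Sohlh1, whose direction was fixed by the filter, is in both member counts.

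The median log2 change of the 8 tested members was -1.38 after Dppa2 siRNA and -1.32 after Dppa4 siRNA, and that of all tested genes was 0.02 and 0.03. With Sohlh1 placed at its bound of 3 reads per library the medians became -1.11 and -1.32. All libraries lay below all control libraries for 6 of the 8 tested members after Dppa2 siRNA and for 7 after Dppa4 siRNA, and 8.2% and 10.2% of tested genes did so. Both counts include Sohlh1, which had to do so because only its control libraries exceeded -2. Nobox, which was not tested, also did so after Dppa4 siRNA. Both knockdowns were compared with the same control libraries, so their shared direction is not independent evidence.

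Sohlh2 (ENSMUSG00000027794) spans chr3:55182028-55209957 on the plus strand. Its log2 expression was 3.52, 3.78, and 3.74 in control replicates A, B, and C, 0.88, 1.40, and 1.60 after Dppa2 siRNA, and 1.61, 1.48, and 1.28 after Dppa4 siRNA. All control libraries stood far above all knockdown libraries, and the knockdown groups overlapped each other. In reads, every control library was over 200, the Dppa2 siRNA libraries held 54, 65, and 63, and the Dppa4 siRNA libraries held 102, 96, and 59. The remaining level was 19.5% ± 4.73 (SD, n = 3) and 21.4% ± 2.45 (SD, n = 3) of control. Its log2 changes were -2.39 (SE 0.20, limma adjusted p = 0.00024) and -2.23 (SE 0.20, limma adjusted p = 0.000394).

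Its partner Sohlh1 (ENSMUSG00000059625, chr2:25842995-25847248, minus strand) was far lower to begin with. It had log2 values of -1.54, -1.22, and -0.21 with control siRNA, from 12, 27, and 23 inferred reads. All 6 knockdown libraries were at the lowest value, with 0 reads in each. The groups thus did not overlap, and set against a floor of 3 reads per library Sohlh1 was at least 3.53-fold lower after Dppa2 siRNA and at least 4.88-fold lower after Dppa4 siRNA. The fitted changes of -3.49 (SE 0.50, limma adjusted p = 0.00583) and -3.50 (SE 0.50, limma adjusted p = 0.00622) depend on the value given to 0 reads and are not bounds. Only the second also passed the intensity filter, and it failed the filter without Dppa2 siRNA replicate A or B or without any 1 of the Dppa4 siRNA replicates, at log2 changes of -3.50 each. Without a control library Sohlh1 no longer met the minimum for testing.

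The oocyte factors of the same group were scarcely detected. Figla (ENSMUSG00000030001, chr6:86016171-86020996, plus strand), which activates zona pellucida genes, had 3, 12, and 4 reads in control libraries, 0, 2, and 1 after Dppa2 siRNA, and 3, 2, and 0 after Dppa4 siRNA. Nobox (ENSMUSG00000029736, chr6:43303674-43309554, minus strand) had 7, 7, and 1 reads in control libraries, 2, 0, and 2 after Dppa2 siRNA, and 0 in each Dppa4 siRNA library. Both were lower in total reads after knockdown, but on the deposited log2 scale the groups overlapped control except for Nobox after Dppa4 siRNA, and a difference was not detectable at this depth.

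**Figure D2:**
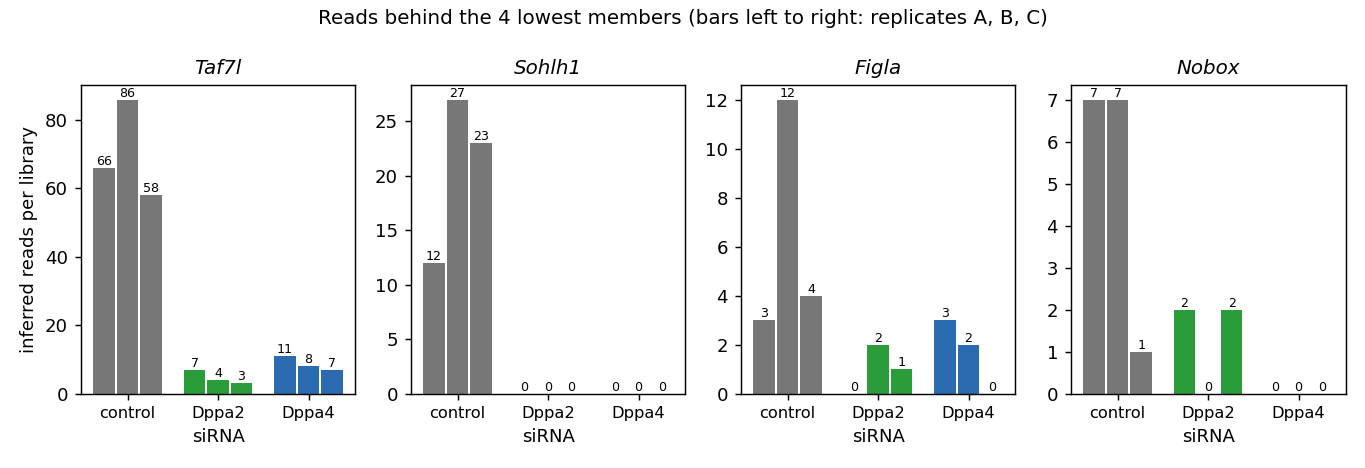
Inferred reads per library (bars, replicates A, B, and C from left to right; each panel has its own axis from 0) of Taf7l, Sohlh1, Figla, and Nobox. Taf7l keeps 3 to 11 reads in the knockdown libraries against 58 to 86 in control libraries, Sohlh1 keeps 0 against 12 to 27, and Figla and Nobox rest on at most 12 and 7 reads anywhere.

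Dazl (ENSMUSG00000010592, chr17:50279395-50293636, minus strand) had log2 values of 2.70, 2.13, and 2.13 with control siRNA, -0.41, 0.31, and -0.03 after Dppa2 siRNA, and -0.10, 0.40, and 0.09 after Dppa4 siRNA. Control replicate A was the highest library, and all controls stood clear of all knockdown libraries. The knockdown values rest on 18 to 27 reads and 24 to 42 reads per library. On the linear scale 19.5% ± 4.76 (SD, n = 3) of the control level remained after Dppa2 siRNA and 21.8% ± 3.90 (SD, n = 3) after Dppa4 siRNA. The log2 changes were -2.36 (SE 0.25, limma adjusted p = 0.00107) and -2.19 (SE 0.25, limma adjusted p = 0.00185).

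Taf7l (ENSMUSG00000009596, chrX:134460118-134476490, minus strand) had log2 values of 1.01, 0.59, and 1.21 with control siRNA, -1.94, -2.25, and -2.42 after Dppa2 siRNA, and -1.47, -1.95, and -1.59 after Dppa4 siRNA. It was the lowest of the tested members that kept reads after knockdown, with 7, 4, and 3 reads after Dppa2 siRNA and 11, 8, and 7 after Dppa4 siRNA, against 66, 86, and 58 in control libraries. The log2 change was -3.14 (SE 0.28, limma adjusted p = 0.000358) after Dppa2 siRNA, and -2.61 (SE 0.28, limma adjusted p = 0.00117) after Dppa4 siRNA. These left 11.3% ± 1.91 (SD, n = 3) and 16.3% ± 2.71 (SD, n = 3) of control on the deposited scale, on which 0 reads is not 0. The first difference passed the intensity filter and the second did not, although it did without any 1 of the control libraries or without Dppa4 siRNA replicate A, at log2 changes between -2.78 and -2.48.

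Stra8 (ENSMUSG00000029848, chr6:34920163-34939344, plus strand) stood apart from these genes. Its log2 expression was 2.06, 2.56, and 3.11 with control siRNA, 3.07, 2.61, and 3.05 after Dppa2 siRNA, and 2.77, 2.66, and 2.75 after Dppa4 siRNA. The control libraries were the most spread, and both knockdown groups lay within their range. The log2 difference was 0.33 (95% interval -0.22 to 0.89, limma adjusted p = 0.641) after Dppa2 siRNA. It was 0.15 (95% interval -0.41 to 0.71, limma adjusted p = 0.843) after Dppa4 siRNA. Both intervals lie above the intervals of Dazl, whose upper ends were -1.79 and -1.62, although the difference between the genes was not itself tested.

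**Figure D3:**
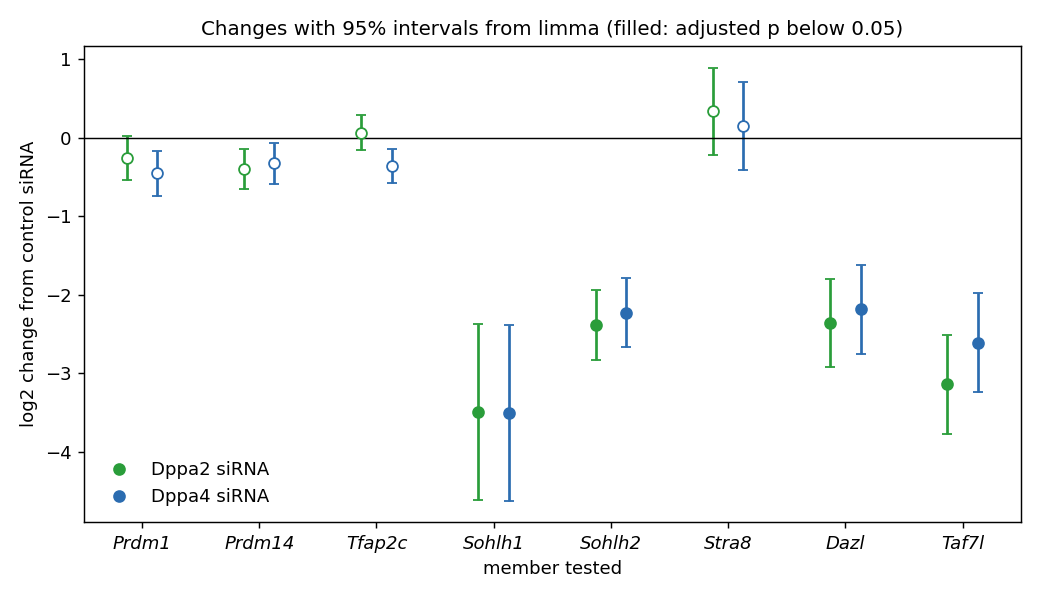
Log2 change from control siRNA, with its 95% interval from limma, of the 8 tested genes (green, Dppa2 siRNA; blue, Dppa4 siRNA; filled, adjusted p below 0.05). Sohlh1, Sohlh2, Dazl, and Taf7l lie between -3.50 and -2.19, and the other 4 between -0.46 and 0.33. The intervals, which are not adjusted for the number of genes, also lie wholly below no change for Prdm14 with both siRNAs. The same holds for Prdm1 and Tfap2c with Dppa4 siRNA.

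Among the early specification genes, Tfap2c (ENSMUSG00000028640, chr2:172549593-172558622, plus strand) had the highest level. It encodes AP-2 gamma and had log2 values of 5.19, 5.22, and 5.26 with control siRNA, 5.40, 5.14, and 5.31 after Dppa2 siRNA, and 4.91, 4.79, and 4.86 after Dppa4 siRNA. The Dppa4 siRNA libraries lay below all others, whereas those after Dppa2 siRNA overlapped control. The log2 difference from control was 0.06 (SE 0.10, limma adjusted p = 0.902) after Dppa2 siRNA and -0.36 (SE 0.10, limma adjusted p = 0.0845) after Dppa4 siRNA.

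Prdm1 (ENSMUSG00000038151, chr10:44437177-44528501, minus strand) encodes Blimp1, a repressor of the somatic programme in germ cell precursors. It had log2 values of 3.66, 3.42, and 3.28 with control siRNA, 3.06, 3.28, and 3.24 after Dppa2 siRNA, and 2.996, 2.96, and 3.03 after Dppa4 siRNA. Both knockdown groups lay below control, after Dppa2 siRNA only in the third decimal. The log2 differences of -0.26 (SE 0.13, limma adjusted p = 0.372) and -0.46 (SE 0.13, limma adjusted p = 0.0928) did not pass the test.

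Prdm14 (ENSMUSG00000042414, chr1:13113457-13127163, minus strand), which also sustains naive pluripotency in ESCs, had log2 values of 3.53, 3.69, and 3.38 with control siRNA, 3.07, 3.20, and 3.12 after Dppa2 siRNA, and 3.19, 3.25, and 3.16 after Dppa4 siRNA. All 6 knockdown libraries lay below the 3 control libraries. The log2 differences were -0.40 (SE 0.11, limma adjusted p = 0.109) and -0.33 (SE 0.11, limma adjusted p = 0.161). They correspond to 75.6% ± 3.41 (SD, n = 3) and 79.3% ± 2.77 (SD, n = 3) of the control level, and neither passed the test.

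Between the knockdowns, 0 of the 8 tested members were called by limma and 1 (Tfap2c) had an unadjusted p below 0.05; of all tested genes, 987 had such a p and 0.0205% were called. Tfap2c was lower after Dppa4 siRNA than after Dppa2 siRNA by a log2 difference of -0.43 (95% interval -0.65 to -0.21, limma adjusted p = 0.586), and the groups did not overlap. For Taf7l the difference of 0.53 had an interval of -0.10 to 1.16, for Dazl 0.17 had one of -0.39 to 0.74, and for Sohlh2 0.16 had one of -0.28 to 0.60. The widest of these reaches above 1 on the log2 scale, so the comparison does not show that the siRNAs acted alike on Taf7l.

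Per kilobase of exon, the mean control log2 level ran from 3.34 for Tfap2c through 2.44 for Sohlh2, 2.17 for Prdm14, 1.73 for Stra8, 0.97 for Prdm1, 0.38 for Dazl, -0.23 for Taf7l, and -1.36 for Sohlh1 to -2.83 for Figla and -4.41 for Nobox. Library ranges of neighbours overlapped for Sohlh2 and Prdm14, for Prdm14 and Stra8, and for Figla and Nobox, and not elsewhere in this order. Sohlh2 ranked 2 of 10 with control siRNA and 5 of 10 with each knockdown, where its mean log2 level per kilobase was 0.05 and 0.21. Dazl ranked 6 of 10 in every treatment, with mean log2 levels per kilobase of -1.98 and -1.80 after knockdown. The order of genes with few or 0 reads after knockdown reflects exon length and was not read. No 50-base stretch of any of the 10 genes was found in another annotated gene.

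The genes most like the highest member of each role group were taken by Pearson r over the 9 libraries, which share their treatments. For Tfap2c they were Arhgef2 (r = 0.9742), Rev1 (r = 0.965), and Ip6k1 (r = 0.9649). For Sohlh2 they were AC231112.2 (r = 0.993), Nos3 (r = 0.9911), and Amph (r = 0.99), whose log2 changes were -6.70, -1.39, and -1.11 after Dppa2 siRNA and -6.33, -1.26, and -1.08 after Dppa4 siRNA. For Stra8 they were 1190005F20Rik (r = 0.9898), Spata7 (r = 0.9827), and Ociad2 (r = 0.9824). As the best of 14601 genes these values are descriptions.

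The other germ cell genes were read as lists written for their known roles. Of the transcription genes of germ cells, such as Dmrt1, Taf4b, and the Rhox genes, 21 were tested. Among these, 1 was high-confidence lowered after Dppa2 siRNA and 0 after Dppa4 siRNA, against 1.53% and 1.58% of all tested genes. The median log2 changes of the list were -0.0040 and -0.09. At an unadjusted p below 0.05 there were 3 and 5, where 15.7% and 18.0% of all tested genes were. The 1 gene was Dmrtb1, a DM domain factor that times meiotic entry in spermatogonia, with a log2 change of -2.44 (SE 0.47, limma adjusted p = 0.0245). With Dppa4 siRNA its change was -1.84 (SE 0.47, limma adjusted p = 0.0728), which passed in 4 of 16 alternatives, among them without Dppa2 siRNA replicate B or C (adjusted p = 0.0275 and 0.0215 at the same change). The difference of Dmrtb1 between the siRNAs was not called in any alternative. The first call was lost without control replicate A, B, or C, without Dppa2 siRNA replicate A, or without Dppa4 siRNA replicate B, with log2 changes of -2.64, -2.29, -2.39, -2.38, and -2.44.

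Of 17 tested RNA regulators of germ cells, which include the Nanos, Pum, and Lin28 genes, only Ddx4 was called. It was high-confidence lowered with each siRNA, where 1.53% and 1.58% of all tested genes were. Ddx4, the Vasa RNA helicase of germ granules, fell by 1.91 on the log2 scale after Dppa2 siRNA (SE 0.21, limma adjusted p = 0.00156) and by 1.19 after Dppa4 siRNA (SE 0.21, limma adjusted p = 0.0184). The second call was lost without control replicate A or B or without any 1 of the Dppa4 siRNA replicates, with log2 changes of -1.002, -1.24, -1.12, -1.19, and -1.27. The list medians were -0.15 and -0.15. At an unadjusted p below 0.05 there were 3 of the 17 genes after Dppa2 siRNA and 5 after Dppa4 siRNA, against the same 15.7% and 18.0% of all tested genes.

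Partners of the specification genes showed 1 call among 12 tested. Of all tested genes 0.37% were high-confidence raised after Dppa4 siRNA. Bmp4, the signal that induces germ cell precursors, rose by a log2 change of 0.85 after Dppa4 siRNA (SE 0.14, limma adjusted p = 0.0128), and had 0.33 after Dppa2 siRNA (SE 0.14, limma adjusted p = 0.301). Without Dppa4 siRNA replicate A or B the first call was lost, at 0.86 and 0.79. With Dppa2 siRNA 0 of the 12 were called by limma. At an unadjusted p below 0.05 there were 4 after Dppa2 siRNA and 3 after Dppa4 siRNA, against 15.7% and 18.0% of all tested genes. The list medians were -0.13 and -0.07. Of 8 oocyte genes that act downstream of Figla, Nobox, or the Sohlh factors, 4 were tested and 0 were called by limma. At an unadjusted p below 0.05 there were 0 after Dppa2 siRNA and 1, Kdm1b, after Dppa4 siRNA (log2 change -0.53).

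Markers of other cells that the cultures could hold were measured beside these results. The 2-cell-like markers, genes of the rare ESCs that resemble the 2-cell embryo, were high-confidence lowered in 10 of 10 with each siRNA. Of all tested genes 1.53% and 1.58% were. Zscan4e, Zscan4f, Tcstv1, Tcstv3, Zfp352, Gm8994, and Dub1 entered the test only through control libraries and so had to be lower elsewhere. The summed linear level of the 10 markers was 82.8 to 91.9 with control siRNA, 0.715 to 1.36 after Dppa2 siRNA, and 0.872 to 1.21 after Dppa4 siRNA. After these siRNAs, 3 and 1 of the markers had 0 reads. In bulk RNA, fewer cells of a type and less RNA per cell cannot be told apart, and the part of these cells in the lower levels of Sohlh1, Sohlh2, Dazl, and Taf7l was not tested. Of 7 tested meiotic germ cell markers, Sycp1, of the synaptonemal complex, was high-confidence lowered after Dppa2 siRNA (log2 change -3.29, 0 to 4 reads per library). After Dppa4 siRNA 0 were called by limma, and Sycp1 had a log2 change of -2.06 (limma adjusted p = 0.116). At an unadjusted p below 0.05 there were 4 and 4, against 15.7% and 18.0% of all tested genes. These lay below control except Sycp3 after Dppa2 siRNA (log2 change 0.35). Prm1 and Acrv1, markers of late male germ cells, had 0 reads in all 9 libraries. The summed level of the 9 meiotic markers was 21.4 to 21.7, 21.2 to 23.6, and 17.5 to 18.4 in the 3 treatments. Of 7 primitive endoderm markers 0 were high-confidence. By limma 3 and 5 had an unadjusted p below 0.05, against 15.7% and 18.0% of all tested genes. Gata6 and Sox17 rose by limma alone after Dppa4 siRNA, where 1.1% of all tested genes were raised by limma. The summed level of these markers was 10.2 to 14 with control, 13.7 to 17.3 with Dppa2, and 19.6 to 22.0 after Dppa4 siRNA. Their part in the Tfap2c and Prdm1 values was not tested. Of 7 fibroblast markers 2 were tested, and 0 had an adjusted or unadjusted p from limma below 0.05.

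**Figure D4:**
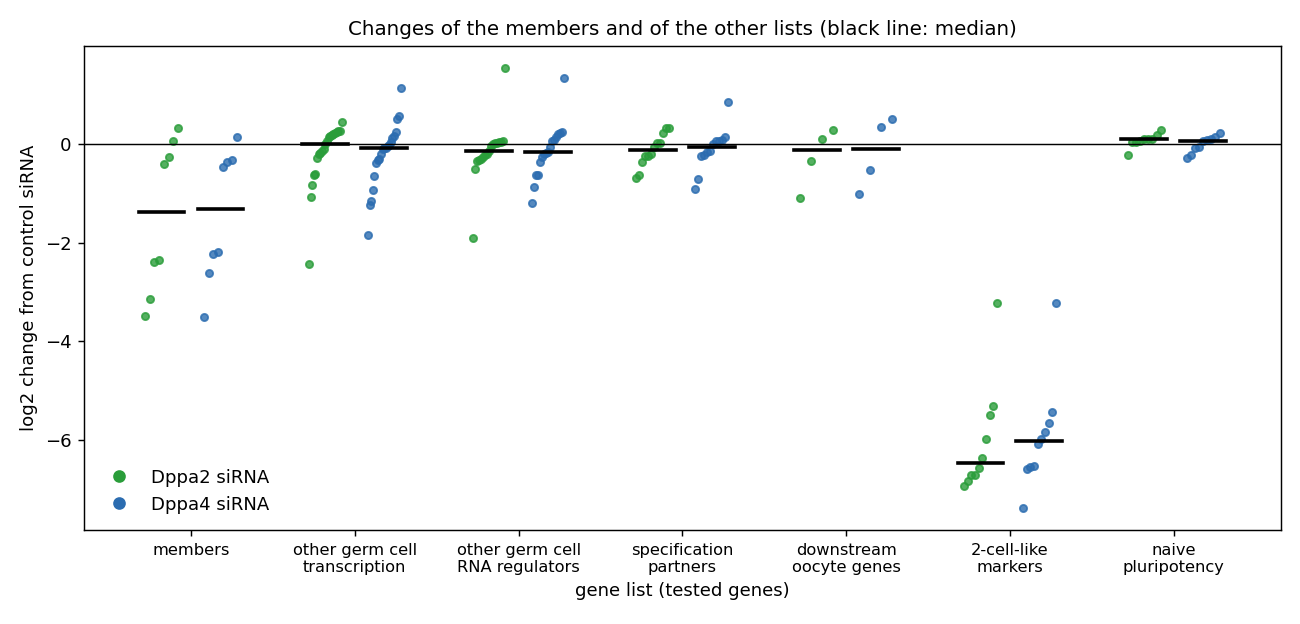
Log2 change from control siRNA of every tested gene in the members and in 6 other lists (points; green, Dppa2 siRNA; blue, Dppa4 siRNA; black line, median). The members split into 4 genes below -2 and 4 between -0.46 and 0.33. The other germ cell lists centre near 0 with Dmrtb1 and Ddx4 lowest for Dppa2 siRNA, and the 2-cell-like markers lie below -3.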

How the data were processed

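RNA-seq was compared between control, Dppa2, and Dppa4 siRNA (3 libraries each). Per the labels and the study's methods, the authors trimmed reads (Trim Galore) and mapped them to GRCm38 (HISAT2 2.0.5). The labels give Trim Galore 0.4.5 and the study's methods an earlier version. Reads were measured by strand over mRNA probes (SeqMonk), and the distributions of the libraries were matched. The deposited values are normalized log2 expression, not corrected for length. Because the matching keeps order, reads were inferred from the rank of each library's distinct values, up to 200, and are approximate. Read floors cover counting error only, and intervals are those of limma, from the spread between libraries.

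Genes over -2 (log2) in 3 or more libraries were fitted with limma 3.58.1 in R 4.3.3 (all 9 libraries, treatment as the only term, intensity trend, Benjamini-Hochberg adjustment, two-sided). The intensity difference filter was a normal model of the 1% of genes nearest in mean expression. The script was tested on simulated data. Promoters were RefSeq's, gene spans and exon lengths GENCODE's on GRCm38. Percentages of control are means over the libraries of a treatment, on the linear scale.

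Members, lists, and tests were chosen with earlier results of these data known. All members and both targets are named, as are, from each germ cell list, the largest high-confidence changes (at most 4). Kdm1b, Gata6, Sox17, Sycp1, Prm1, and Acrv1 were named after their values were seen. Bhmg1, Meioc, Usp17lc, and Usp17le had no row under that name. Python 3.11.15, numpy 2.4.6, pandas 2.3.3, and matplotlib 3.10.9 were used.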

Additional observations from a re-analysis of the deposited data

How the results depend on the processing

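Alternatives were no filter on low values, a minimum of 0, no intensity trend, a pseudocount of 1, subtraction of library medians, fits on only the groups compared, limma alone, a replicate block, and leaving out each library. The number of members called lowered stayed between 2 and 4 in both comparisons under all of them, and Sohlh2 and Dazl were high-confidence in all 16 alternatives that tested them. Sohlh1 was high-confidence in 2 of 12 with Dppa2 siRNA and 7 of 12 with Dppa4 siRNA, and Taf7l in 15 and 6 of 16. Prdm14 passed limma with Dppa2 siRNA (adjusted p = 0.0311) when no filter was applied, and its adjusted p ranged from 0.0311 to 0.324.

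Signs turned only for differences that had not passed the test. With libraries left out in turn, the log2 change with Dppa4 siRNA ranged from -0.11 (without control siRNA replicate A) to 0.42 for Stra8 and from -0.14 to 0.020 (without control siRNA replicate A) for Dppa2. The log2 difference between the knockdowns ranged from -0.048 to 0.31 for Sohlh2 and from -0.0094 to 0.35 for Dazl, negative without Dppa2 siRNA replicate A. The cause was not tested.

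Samples with the same replicate letter did not consistently deviate together (Pearson r from -0.585 to 0.367 over 9 pairs, against -0.658 to 0.692 over 18 pairs with other letters). Control siRNA replicate B correlated best with Dppa2 siRNA replicate B (r = 0.0991), and Dppa2 siRNA replicate C with control siRNA replicate C (r = 0.341). The remaining libraries each correlated best with a library of another letter, so the letters were not taken as pairs. With the replicate block 3 members were lowered in each comparison, and calls over all genes went from 279 to 187 with Dppa2 siRNA and from 284 to 176 with Dppa4 siRNA, of which raised genes went from 55 and 54 to 20 and 20. Between the knockdowns 3 calls became 1. Dmrtb1 with Dppa2 siRNA and Ddx4 with Dppa4 siRNA no longer passed limma with the block (adjusted p = 0.0642 and 0.0749). The first also failed in a fit of only the groups compared (adjusted p = 0.0957), in which Dmrtb1 passed with Dppa4 siRNA (adjusted p = 0.0161, and 0.0174 with a pseudocount of 1), and the second without a filter (adjusted p = 0.0526). Depth limits Sohlh1, Taf7l, Figla, and Nobox most.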
